A study of Rattus norvegicus with 15 samples.

Results

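The retinas compared here came from rats that had spent 6 hours in light, and their transcripts were set against those of rats that had spent 3 hours in the same light. The members were chosen from the sample titles, 3 arrays of 6 hours and 3 arrays of 3 hours, which makes 6 of the 15 arrays of the study, and all 31042 probe sets that are not controls of the manufacturer were described (31099 are on the array). The animals were adult male Long Evans rats, 3 months old and pigmented, kept on a daily cycle of light and dark and held in darkness overnight. Hours are given as Zeitgeber time (ZT), counted from the usual lights on at 7 am. The 3 ZT light group was exposed to 1000 lux from 0 to 3 ZT and the 6 ZT light group from 0 to 6 ZT, while the 3 ZT dark and 6 ZT dark groups stayed in darkness until the same hours. Each group held 3 arrays, called replicas, of total RNA from whole retinas. For 6 ZT light the title gives 6 hours of light and the source label gives 3, and the title was followed. With all 15 arrays, the remaining group, 0 ZT dark, entered only the shared estimate of the spread. Where a light array was left out or arrays were weighted, all dark arrays also entered the fitted difference through the term for the replica number. The labels do not say whether replicas were separate animals or pools, so a p-value here speaks of the scatter among these arrays, which may be technical. Hours of light and hour of the day advance together between the groups in light, and the 6 arrays in darkness give the same 3 hours of clock time without light.

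The retina adapts to light over minutes by its phototransduction cascade and over hours by changes in transcription. Light reaches the nucleus in part through calcium, cAMP and the ERK kinase pathway, which switch on immediate early genes within minutes, and slower programmes such as the circadian clock and hormone signalling follow over hours. A transcript that is high early and back at its dark level later is a transient response, and a transcript that is high only later is a late response. Values are log2 signals from arrays of short oligonucleotide probes made with the Robust Multi-array Average, so that a difference of 1 is a doubling. Values of different probe sets are not comparable as amounts of RNA. In whole retina, more RNA per cell and more cells of a type cannot be told apart.

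An array of the comparison stood apart from the rest. In 3 ZT light replica 2 the *Actb* signal of the probe set at the 3′ end exceeded that at the 5′ end by 2.399 on the log2 scale, a sign of RNA quality, against 0.785 to 1.299 in the other light arrays at 3 and 6 ZT and 0.708 to 1.371 in the dark arrays of these hours. The same difference for *Gapdh* was 0.362, against 0.005 to 0.134 in the other arrays of 3 and 6 ZT. The residual SD of this array was 0.255, against 0.125 to 0.181 in those arrays. The differences between 6 and 3 ZT light had an SD over probe sets of 0.242 in replica 1, 0.513 in replica 2 and 0.261 in replica 3, and 1848 probe sets differed by more than 1 in replica 2 against 215 and 194 in the others. Many results are therefore also given without it. These values come from a refit with a term for the replica, so they can differ from the mean of the remaining replica pairs. A result printed without such a value may still depend on this array. The values of light minus darkness at 3 ZT all include it. The tissue label was borne out by the 21 rod phototransduction genes measured, whose mean log2 signal was 13.32 to 13.69 in the 3 ZT light arrays and 13.54 to 13.70 in the 6 ZT light arrays, against 9.36 to 9.71 and 9.41 to 9.69 for all 14217 genes. Lens transcripts were also present and are described further on.

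No probe set passed the test between 6 and 3 ZT light. With limma over all 15 arrays, fitted with a term for the condition and one for the replica, 0 of 31042 probe sets (0%) were higher and 0 (0%) were lower at an adjusted p under 0.05, and the lowest adjusted p was 0.458. At an unadjusted p under 0.05 there were 3225 probe sets (10.4%), of which 1966 (6.33%) were higher in 6 ZT light and 1259 (4.06%) lower. Without 3 ZT light replica 2 the number was 1466 (4.72%), against the 1552 that an even spread of p-values puts under 0.05, and the whole distribution was flat. In darkness the same 3 hours gave 0 probe sets past the adjusted threshold and 1724 (5.55%) at an unadjusted p under 0.05. The difference between light and darkness, tested as a contrast of its own, gave 0 and 1847 (5.95%). The genes below are therefore described by their values. A p that misses the threshold does not show that levels were equal, and 3 arrays a group limit the precision.

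**Figure D1:**
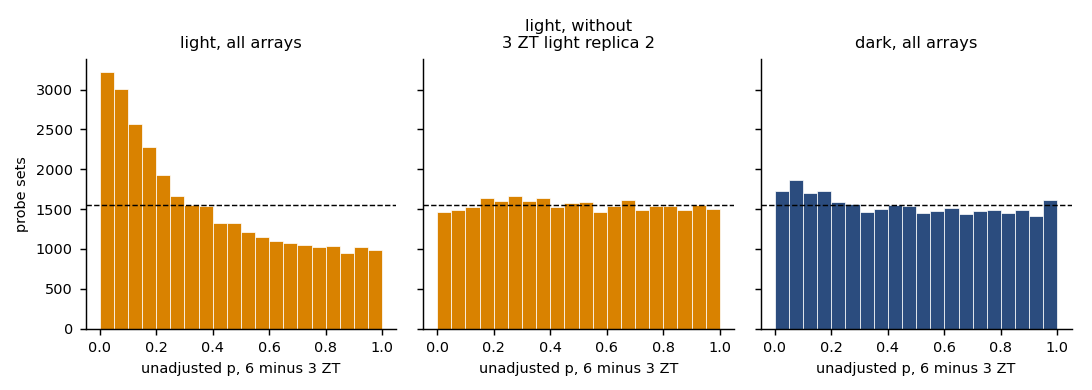
Unadjusted limma p-values (x axis) of 31042 probe sets in 20 bins (y axis, probe sets per bin) for 6 ZT light minus 3 ZT light with all arrays, for the same without 3 ZT light replica 2, and for 6 ZT dark minus 3 ZT dark. The dashed line at 1552 is an even spread. The lowest bin holds 3225 probe sets with all arrays and 1466 without that array.

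Of the 3 transporters measured in the chosen list of the thyroid hormone cascade, *Slc16a10* and *Slco1c1* had higher values in 6 ZT light than in 3 ZT light. *Slco1a4* did not (−0.03 ± 0.20, and 0.11 without 3 ZT light replica 2). *Slc16a10* codes for a membrane carrier of thyroid hormones and aromatic amino acids. Its log2 signal in 3 ZT light was 6.78, 6.68 and 7.39 in replicas 1, 2 and 3, and in 6 ZT light 7.43, 7.32 and 8.16. All replicas were higher at 6 ZT, by nearly the same factor (ratio 1.61 ± 0.08, SD, n = 3). The groups overlapped, with replica 3 high at both hours. Array medians over all probe sets also rose from replica 1 to replica 3, and such offsets affect whether the groups of any gene overlap. The fitted difference was 0.69 ± 0.12 (SE, limma adjusted p = 0.458), and 0.61 without 3 ZT light replica 2. In darkness it was −0.11, with 6.50, 6.76 and 7.24 at 3 ZT and 6.52, 6.61 and 7.02 at 6 ZT, so that the difference between light and darkness was 0.80 ± 0.17 (adjusted p = 0.78). Against darkness at the same hour, light stood 0.12 higher at 3 ZT and 0.92 higher at 6 ZT.

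*Slco1c1*, a carrier of thyroxine found at the barriers of brain and eye, had 9.35, 9.15 and 10.01 in 3 ZT light and 10.35, 10.28 and 10.31 in 6 ZT light. The groups did not overlap, and the 6 ZT light arrays lay close together while those of 3 ZT light were spread. The difference was 0.81 ± 0.21 (adjusted p = 0.458) in light and −0.02 in darkness. *Dio2*, the deiodinase that activates thyroxine, ran the other way. Its signal was 7.07, 6.97 and 9.51 in 3 ZT light and 5.87, 7.33 and 8.99 in 6 ZT light, lower at 6 ZT in replicas 1 and 3 and higher in replica 2. The difference of −0.45 ± 0.38 was close to its error (adjusted p = 0.612) and was −0.89 without 3 ZT light replica 2. *Dio3*, the deiodinase that inactivates the hormone, differed by 0.53 ± 0.45. Among targets and binding proteins, *Hr*, a corepressor that thyroid hormone induces in rodent brain, differed by 0.34 ± 0.13 with no overlap (9.36, 9.34 and 9.33 against 9.57, 9.72 and 9.75). *Crym*, which binds the hormone in the cytosol, differed by 0.33 ± 0.13, and by 0.13 without 3 ZT light replica 2. Of 22 measured genes of the cascade, 16 had a higher and 6 a lower fitted value, 4 were higher and 0 lower at an unadjusted p under 0.05, and the median was 0.12 in light and 0.00 in darkness. Over all 14217 genes the median was 0.01, with 6.42% higher and 2.87% lower at that p. Without 3 ZT light replica 2 the median of the cascade was 0.08, with 2 genes higher and 1 lower at that p, against 3.42% and 0.823% of all genes.

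The promoter of *Slc16a10* is shown because this gene had the lowest p in the cascade and AGGTCA is the sequence that thyroid hormone receptors and related nuclear receptors bind. The window runs from 250 bases before to 50 after the gene's start in RefSeq on the rat assembly GRCr8, chr20:45122309-45122608, minus strand, and the capitals mark AGGTCA on either strand.
*Slc16a10*: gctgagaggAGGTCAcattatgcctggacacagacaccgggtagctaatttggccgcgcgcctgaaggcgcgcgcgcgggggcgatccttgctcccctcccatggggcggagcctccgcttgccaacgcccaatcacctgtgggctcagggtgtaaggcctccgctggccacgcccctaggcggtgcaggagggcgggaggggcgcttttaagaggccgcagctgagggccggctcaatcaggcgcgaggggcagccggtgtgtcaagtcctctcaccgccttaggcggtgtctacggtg
The window holds 1 match, which 16.2% of all 33469 rat promoters of this length also hold at least once. The DR4 element, AGGTCA repeated in the same direction with 4 bases between, searched on either strand, was not in this window and is in 0.00598% of all promoters. A match of letters is a description and not a measured binding site. The promoter table used here holds no entry for *Slco1c1*.

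Some genes of the ERK pathway and some immediate early genes were also separated between the light groups, and others were not. *Dusp5*, an inducible nuclear phosphatase that switches ERK off, had 10.20, 9.94 and 9.78 in 3 ZT light and 10.91, 10.80 and 10.60 in 6 ZT light. Each replica was 1.64 to 1.82 times higher at 6 ZT (ratio 1.74 ± 0.09, SD, n = 3), and the difference was 0.80 ± 0.15 (adjusted p = 0.458). It was 0.74 without 3 ZT light replica 2 and 0.13 in darkness. *Nr4a1*, an orphan nuclear receptor induced by neuronal activity, had 10.01, 9.52 and 9.64 against 10.62, 10.49 and 10.28. Its difference was 0.74 ± 0.14, and 0.55 without 3 ZT light replica 2. Set against darkness, *Nr4a1* was 0.50 lower in light at 3 ZT and 0.12 higher at 6 ZT, and all its 3 ZT light arrays lay below those of 3 ZT dark (10.28, 10.36 and 10.04). *Dusp5* was 0.20 lower in light than in darkness at 3 ZT and 0.47 higher at 6 ZT.

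Other members of these pathways were smaller or split. *Srf*, the factor that drives many immediate early genes, had 10.90, 11.19 and 10.98 against 11.25, 11.29 and 11.22, a difference of 0.23 ± 0.07 without overlap. *Jun*, a subunit of the AP-1 factor, differed by 0.34 ± 0.15 and by 0.20 without 3 ZT light replica 2. *Etv4*, an ETS factor induced by ERK, had 7.18, 7.61 and 9.01 against 7.71, 9.64 and 9.12, and most of its difference of 0.89 ± 0.34 came from replica 2. *Dusp6*, a cytoplasmic ERK phosphatase, was lower in light by −0.45 ± 0.21 and in darkness by −0.64. *Fos*, the partner of *Jun* in AP-1, had 11.36, 13.67 and 11.47 against 11.68, 12.23 and 12.14. Its difference of −0.15 ± 0.46 was 0.47 without 3 ZT light replica 2, its highest array, and 0.035 and 0.042 without 6 ZT light replicas 1 and 2. The difference was 0.92 with array quality weights, which in 6 ZT light lay mostly on replica 3. *Egr1*, a zinc finger immediate early factor, had 13.97, 14.74 and 12.74 against 14.27, 13.86 and 14.38, a difference of 0.35 ± 0.39 that was −0.16 without 6 ZT light replica 3. Over 22 immediate early genes, 11 were higher and 11 lower, with a median of −0.0019 (0.12 without 3 ZT light replica 2). At an unadjusted p under 0.05, 3 were higher and 0 lower (6.42% and 2.87% of all genes). Over 12 genes of ERK feedback and Etv targets, 8 were higher and 4 lower, with 2 and 0 at that p and a median of 0.03 (0.04 without that array).

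The promoters of *Nr4a1* and *Dusp5* are shown because both genes were separated between the groups, and TGACG is the core that the cAMP response factor CREB binds. Both windows are on GRCr8 (RefSeq), *Nr4a1* at chr7:134259888-134260187 and *Dusp5* at chr1:262543524-262543823, both on the plus strand, and the capitals mark TGACG on either strand.
*Nr4a1*: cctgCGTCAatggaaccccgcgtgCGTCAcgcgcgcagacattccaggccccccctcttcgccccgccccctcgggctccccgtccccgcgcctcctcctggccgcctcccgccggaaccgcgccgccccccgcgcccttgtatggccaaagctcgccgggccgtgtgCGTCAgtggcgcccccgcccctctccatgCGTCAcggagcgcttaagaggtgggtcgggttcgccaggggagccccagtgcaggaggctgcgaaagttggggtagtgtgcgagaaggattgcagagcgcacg
*Dusp5*: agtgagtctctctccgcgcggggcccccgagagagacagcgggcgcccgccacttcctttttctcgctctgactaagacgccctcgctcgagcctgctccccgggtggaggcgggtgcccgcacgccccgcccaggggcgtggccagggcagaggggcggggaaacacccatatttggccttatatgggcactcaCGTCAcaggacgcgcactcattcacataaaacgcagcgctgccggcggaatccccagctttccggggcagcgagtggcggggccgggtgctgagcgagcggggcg
The window of *Nr4a1* holds 4 matches and that of *Dusp5* holds 1, and 21.2% of all rat promoters hold at least 1. The full palindrome TGACGTCA was in neither window and is in 1.83% of promoters.

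Among genes chosen for the lowest p-values and the same direction in all 3 replicas, 12 were taken in each direction, all with an adjusted p of 0.458, and their common direction is part of that choice. On the higher side, besides *Slc16a10*, *Dusp5* and *Nr4a1*, the muscle M-band gene *Myom2* had 9.62, 9.65 and 9.67 in 3 ZT light and 10.10, 10.74 and 10.79 in 6 ZT light. The groups did not overlap, and the difference was 0.90 ± 0.15 in light and 0.09 in darkness. *Tpbg*, a membrane glycoprotein of rod bipolar cells, had 8.38, 9.18 and 8.46 against 8.91, 9.91 and 9.52 (0.77 ± 0.12, and 0.22 in darkness). *Greb1l*, a relative of an oestrogen-regulated gene, had 9.80, 9.98 and 9.76 against 10.09, 11.19 and 10.66 (0.80 ± 0.15, and −0.22 in darkness). The differences of these 3 genes were close to those values without 3 ZT light replica 2, at 0.85, 0.81 and 0.72.

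The remaining 6 higher genes spanned 0.35 to 0.68. *Alox5ap*, needed for leukotriene synthesis, had 8.51, 7.94 and 8.59 against 8.87, 8.95 and 9.27. *C4bpb*, a chain of a complement regulator, had 9.48, 9.40 and 9.80 against 9.83, 10.40 and 10.35. *Epha7*, an ephrin receptor, had 7.06, 7.02 and 7.31 against 7.36, 7.85 and 8.03. These 3 groups did not overlap, and in each of them the 3 ZT light arrays lay below every dark array of 3 ZT. *Plce1*, a phospholipase C, differed by 0.51 ± 0.09, the iron oxidase *Heph* by 0.46 ± 0.09 and the atypical kinase *Mapk4* by 0.35 ± 0.07, all with overlapping groups.

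On the lower side, *Rab27b*, a small GTPase of vesicle secretion, had 9.25, 8.41 and 11.20 in 3 ZT light and 7.04, 7.74 and 10.14 in 6 ZT light. Replica 3 was high at both hours, and every replica was lower at 6 ZT, by −1.31 ± 0.28 in the fit and −1.42 without 3 ZT light replica 2. In darkness it had 7.16, 6.82 and 10.34 at 3 ZT and 7.05, 7.42 and 10.24 at 6 ZT. The 6 ZT light values thus lay near those in darkness, with light 1.51 above darkness at 3 ZT and 0.07 at 6 ZT. *Arhgap5*, a GTPase-activating protein, showed the same order, with 11.65, 11.83 and 12.30 against 9.69, 10.30 and 11.53 and no overlap. Its difference was −1.42 ± 0.34, with light 1.17 above darkness at 3 ZT and −0.05 at 6 ZT. *Fbxo15*, an F-box protein, had 10.27, 11.11 and 10.79 against 9.20, 9.07 and 8.69, a difference of −1.74 ± 0.42.

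*Pmel*, which forms the fibrils of melanosomes in pigment cells, had 11.85, 12.48 and 11.73 against 11.49, 11.04 and 10.94. The groups did not overlap, but darkness gave −0.53 beside −0.86 in light, and the test of the difference gave an adjusted p of 0.80. *Znf780b* (−0.56 ± 0.13, no overlap), a zinc finger gene, also had a lower value in darkness, at −0.29. *Inpp5j*, an inositol phosphatase, *Usp29*, a deubiquitinase, *Syt6*, a synaptotagmin, *Wdr31*, *Ankrd60* and the ubiquitin ligase *Rnf19b* lay between −0.25 and −0.59 with overlapping groups. The uncharacterised *LOC102554996* had 7.40, 7.29 and 7.44 against 7.09, 6.96 and 7.19, a small difference of −0.30 ± 0.06 without overlap.

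**Figure D2:**
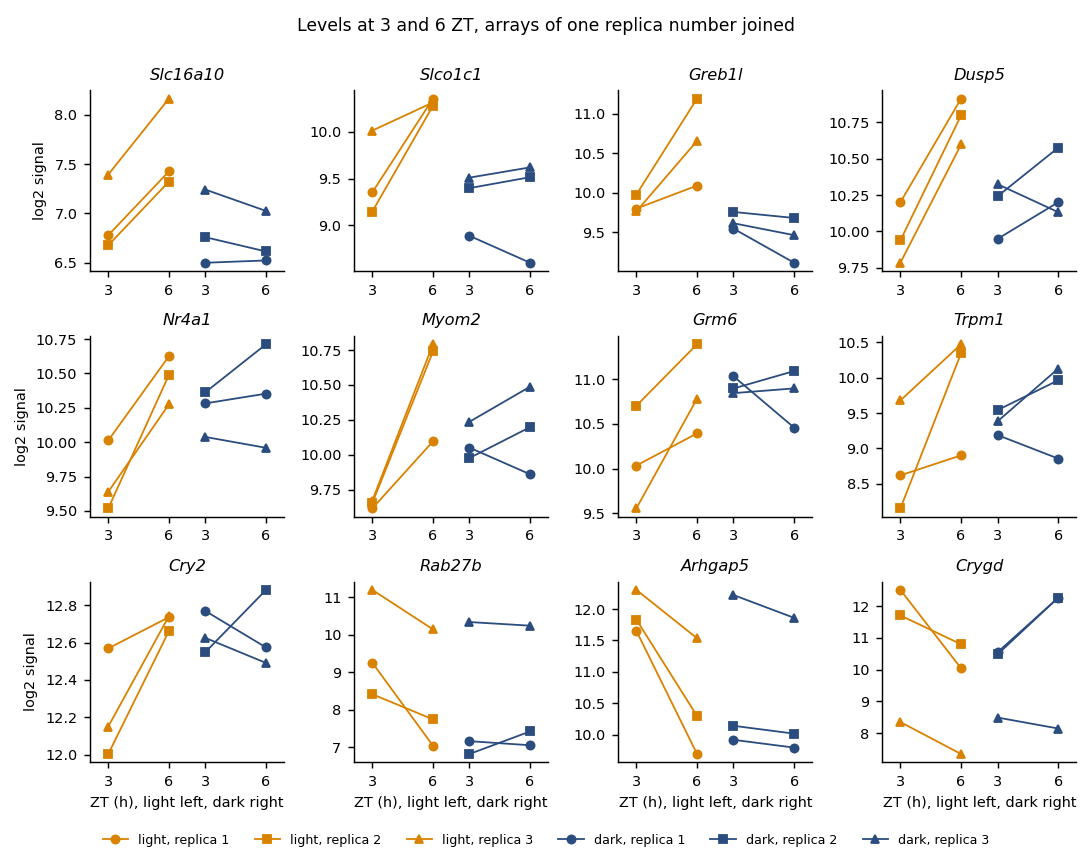
Log2 signal (y axis, a scale of its own in each panel) of 12 genes at 3 and 6 ZT (x axis) in light (orange, left) and in darkness (blue, right), with arrays of the same replica number joined. *Dusp5* and *Nr4a1* do not overlap between 3 and 6 ZT light, *Slc16a10* is shifted in parallel in all replicas, and *Rab27b* and *Arhgap5* are lower at 6 ZT light in each replica.

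By the size rule of the study, a ratio above 1.6 or below 0.7 in each of the 3 replicas, few probe sets were higher at 6 ZT light and more were lower. There were 10 higher (0.0322%) and 62 lower (0.2%), against 15 (0.0483%) and 18 (0.058%) for 6 over 3 ZT in darkness. This rule carries no test. The probe sets nearest to the thresholds had a smallest ratio of 1.603 inside and 1.583 outside on the higher side, and a largest ratio of 0.6996 inside and 0.7003 outside on the lower side. The 10 higher probe sets cover 8 named genes. They are *Dusp5*, *Cldn2* (a claudin of tight junctions, ratio 2.35 ± 0.44), *Adgrg1* (an adhesion receptor, 1.83 ± 0.16), *Crhbp* (which binds corticotropin-releasing hormone, 1.87 ± 0.30), *Fbn1* (fibrillin of the extracellular matrix, 1.98 ± 0.34 and 2.21 ± 0.37 for its 2 probe sets), and dimmer probe sets of *Glul* (glutamine synthetase), *Gja1* (a gap junction connexin) and *Slc6a9* (a glycine transporter). Of these 10, 1 had groups that did not overlap. For *Glul* the passing probe set had 11.67, 9.70 and 12.98 against 12.43, 13.26 and 13.93, while its brightest had 14.03, 14.18 and 14.27 against 14.12, 14.54 and 14.64. The difference was 1.76 in the former, 0.75 without 3 ZT light replica 2, and 0.27 in the latter.

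The 62 lower probe sets cover 46 named genes, and 16 carry no single symbol. The largest mean changes among the named were *Pnma8b*, *Fbxo15*, *Slc4a7* (a bicarbonate transporter), *Dhx36* (a helicase), *Herc1* (a ubiquitin ligase), *Crygd* (a lens crystallin), *Kif1a* (a kinesin that carries synaptic vesicle precursors), *Arhgap5*, *Ralgps2* and *Rab27b*. *Kif1a* had 8.84, 9.58 and 10.30 in 3 ZT light and 7.55, 8.18 and 8.65 in 6 ZT light, a ratio of 0.37 ± 0.05. *Herc1* had 10.05, 10.40 and 10.27 against 7.50, 8.71 and 9.69, and *Ralgps2*, an activator of Ral GTPases, 9.74, 10.47 and 10.36 against 8.81, 8.80 and 8.89. Groups did not overlap for these 3 genes and for 25 of the 62 probe sets in all. The ratio rule itself favours groups without overlap. The share over all probe sets was not counted, so this number and that of the 10 higher probe sets have no background beside them. The median difference of the 62 was −0.98 in light and −0.01 in darkness. Their median light value stood 0.69 above darkness at 3 ZT and −0.25 at 6 ZT. The median of 6 minus 3 ZT in light is fixed in direction by the choice of the probe sets. The medians of light minus darkness use the same light arrays, so the choice also pushes them up at 3 ZT and down at 6 ZT.

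Many of these lower probe sets were not the main signal of their gene. Of the 46 with a symbol, 26 had a brighter probe set for the same gene. The passing 26 had a median of −0.92, while their brighter partners had a median of 0.03, with 12 of 26 on the lower side. For *Slc4a7* and *Dhx36*, both in this position, the passing probe sets had ratios of 0.35 ± 0.19 and 0.36 ± 0.16. Which transcript form each probe set detects was not tested.

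Early and late responses were then separated by light against darkness at each hour, with the same ratios. Of the probe sets higher in light, 4 passed at 3 ZT only, 1 at both hours and 16 at 6 ZT only. Of those lower in light, 10 passed at 3 ZT only, 0 at both and 12 at 6 ZT only. The comparison at 3 ZT called 0.0161% higher and 0.0322% lower of all probe sets, and that at 6 ZT 0.0548% and 0.0387%. The light arrays that set these groups are also those of the comparison of 6 with 3 ZT light, so the values of their members there are a description. The 4 probe sets high early only were all lower at 6 than at 3 ZT light (median −0.94). They include *Rab27b* and a dimmer probe set of *Ro60*, an RNA-binding autoantigen, which had 9.92, 11.14 and 10.55 in 3 ZT light and 9.19, 9.48 and 9.96 in 6 ZT light.

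The late higher group held *Slc16a10*, *Slco1c1*, *Greb1l*, *Etv4* and *Lrat* among its 8 named genes. *Lrat*, which esterifies retinol in the visual cycle of the pigment epithelium, stood 0.27 above darkness at 3 ZT light and 1.43 at 6 ZT. It had 10.20, 9.84 and 9.25 in 3 ZT light and 11.13, 10.12 and 9.63 in 6 ZT light (0.53 ± 0.31), while darkness went from 9.55, 10.00 and 8.94 to 9.01, 9.36 and 8.21. Between the hours light thus gave higher values and darkness lower ones (−0.64), with overlapping light groups. *Greb1l* stood 0.21 above darkness at 3 ZT and 1.23 at 6 ZT. Of the 16 probe sets of this group, 14 were higher at 6 than at 3 ZT light (median 0.55).

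The early lower group had 10 probe sets, all higher at 6 than at 3 ZT light (median 0.46). *Ak4*, a mitochondrial adenylate kinase, had 10.64, 10.22 and 10.53 in 3 ZT light, 11.01, 10.84 and 10.87 in 6 ZT light, and 11.19, 11.23 and 11.06 in 3 ZT dark. Its light arrays were low at 3 ZT and near darkness at 6 ZT (0.70 below darkness and 0.05 below). The keratin *Krt19* had 10.39, 9.92 and 10.55 against 10.75, 11.06 and 11.07, with 0.90 and 0.23 below darkness. The laminin chain *Lamb3* differed by 0.77 ± 0.31. *Gng13*, a G protein subunit of ON bipolar cells, had 11.20, 11.21 and 12.21 against 11.70, 12.16 and 12.12. *Drd4*, the dopamine receptor of photoreceptors, passed with both of its dimmer probe sets, while its brightest differed by −0.04 ± 0.12 between the light groups. The dimmest had 11.82, 10.32 and 11.34 in 3 ZT light and 12.28, 11.03 and 11.68 in 6 ZT light, where light stood 1.25 and 0.65 below darkness. The difference of 0.50 ± 0.41 was 0.09 without 3 ZT light replica 2. Of the 12 probe sets of the late lower group, 10 belonged to lens genes, which made up 14 crystallins and 9 other genes of all 14217. Lens signal varied widely between arrays. The log2 of the summed crystallin signal ran from 14.75 to 17.52 in 6 ZT light and from 17.27 to 18.00 in 6 ZT dark.

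**Figure D3:**
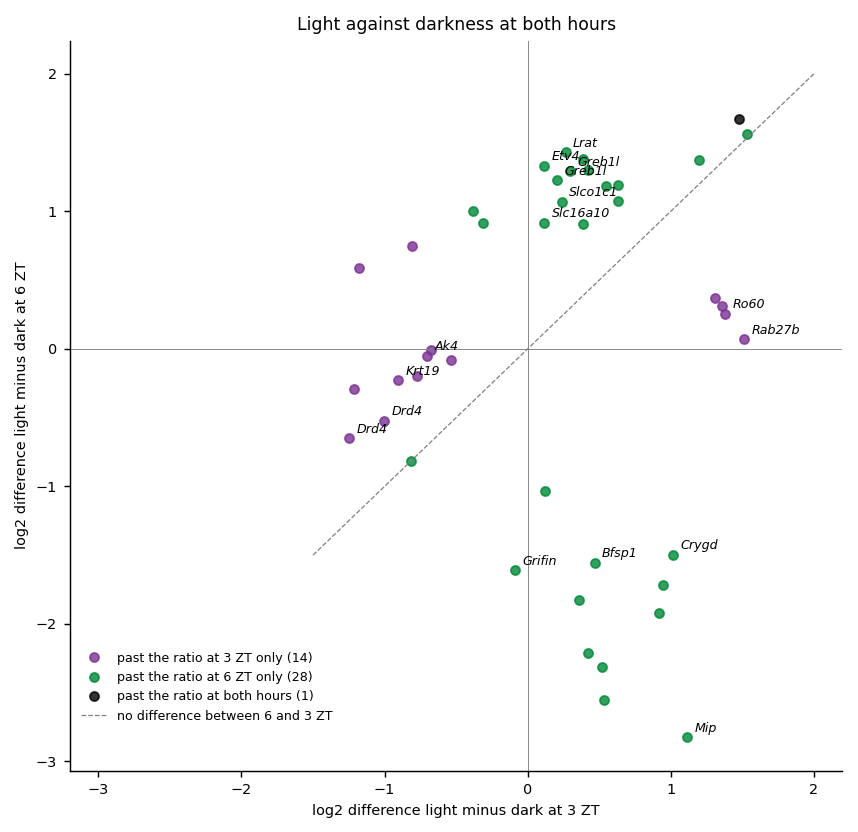
Fitted log2 difference of light minus darkness at 3 ZT (x axis) and at 6 ZT (y axis) for the 43 probe sets with a ratio above 1.6 or below 0.7 in all 3 replicas at 3 ZT only (14, purple), at 6 ZT only (28, green) or at both hours (1, black). Vertical distance from the dashed line is the change in light minus darkness from 3 to 6 ZT, not the difference between the light groups. At both hours 1 probe set passed.

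Bipolar cells pass photoreceptor signals to the inner retina, and ON bipolar cells use the metabotropic glutamate receptor of *Grm6* to open the channel of *Trpm1*. Of 10 bipolar genes measured, 9 were higher and 1 lower at 6 ZT light, with 6 higher and 0 lower at an unadjusted p under 0.05 (6.42% and 2.87% of all genes), and a median of 0.48. By replica the medians were 0.11, 0.85 and 0.33, in darkness the fitted median was −0.05, and without 3 ZT light replica 2 it was 0.36 with 4 genes higher at that p (3.42% of all genes). *Grm6* had 10.04, 10.70 and 9.56 in 3 ZT light and 10.39, 11.39 and 10.78 in 6 ZT light (0.76 ± 0.23, adjusted p = 0.465, and 0.94 without 3 ZT light replica 2). *Trpm1* had 8.62, 8.15 and 9.68 against 8.90, 10.35 and 10.47, with 1.09 ± 0.35 and 0.60 without that array. *Pcp2*, a G protein modulator of bipolar cells, had 13.52, 13.32 and 13.75 against 13.62, 14.52 and 14.18. *Prkca*, the kinase that marks rod bipolar cells, had 9.61, 9.86 and 9.43 against 9.98, 10.19 and 9.99 with no overlap (0.42 ± 0.11). *Grik1*, a kainate receptor of OFF bipolar cells, and *Isl1*, a LIM homeobox factor, differed by 0.69 and 0.51, and by 0.48 and 0.31 without that array.

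Bipolar genes in light stood below darkness at 3 ZT and level with it at 6 ZT. Over the list the median of light minus darkness was −0.53 at 3 ZT and 0.01 at 6 ZT. For *Pcp2* the dark arrays lay between 13.92 and 14.48, above all 3 ZT light arrays, and for *Grm6* light was 0.83 below darkness at 3 ZT. The log2 of the summed signal of the 10 genes was 15.24 to 15.70 in 3 ZT light, 15.25 to 16.01 in 6 ZT light, 15.63 to 15.86 in 3 ZT dark and 15.42 to 15.98 in 6 ZT dark, so that the light groups overlapped. Of 21 rod genes, 13 were higher and 8 lower with a median of 0.03. At an unadjusted p under 0.05 there were 0 in either direction (6.42% higher and 2.87% lower of all genes). Without 3 ZT light replica 2, 9 were higher and 12 lower with a median of −0.001. *Sag*, rod arrestin, lay between 15.14 and 15.54 in all 6 light arrays. Of 9 cone genes, 5 were higher and 4 lower (median 0.28, and 0.09 without 3 ZT light replica 2). The cone transducin chain *Gnb3* had 12.20, 12.49 and 12.46 against 12.45, 12.86 and 12.77 (0.31 ± 0.10). The green cone opsin *Opn1mw* had 11.84, 11.02 and 11.89 against 12.02, 11.84 and 12.14, with 0.42 ± 0.18 and 0.16 without that array. For *Opn1sw*, the short-wave opsin, the corresponding values were 0.29 and 0.05, and for cone arrestin *Arr3* 0.29 and 0.23.

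Inner retinal and synaptic genes were mixed. Of 24 amacrine and horizontal genes, 17 were higher and 7 lower, 4 and 0 at an unadjusted p under 0.05 (6.42% and 2.87% of all genes). Their median was 0.12 in light, 0.08 without 3 ZT light replica 2, and 0.14 in darkness. *Calb1*, a calcium buffer of horizontal cells, had 11.83, 11.84 and 11.73 against 11.87, 12.41 and 12.12. *Th*, which makes dopamine, differed by 0.51 ± 0.18 in light and 0.39 in darkness, and *Drd2*, a dopamine receptor, by 0.81 ± 0.25 and 0.54. Of 27 genes of synapse and transmitter release, 19 were higher and 8 lower, with 8 and 1 at that p (6.42% and 2.87% of all genes), but darkness gave 26 higher and 1 lower (7106 and 7097 of all genes), with a median of 0.24 against 0.18 in light. Without 3 ZT light replica 2, 1 gene was left at that p and the median was 0.09. *Vamp2*, a vesicle fusion protein, had 12.22, 10.68 and 12.59 against 12.73, 12.50 and 13.22, with its lowest value in that array, and differed by 0.99 with it and 0.41 without. The corresponding values were 0.86 and 0.39 for the priming factor *Unc13b*. *Syt1*, the calcium sensor of release, differed by 0.72 in light and 0.97 in darkness. *Gabrr1*, a subunit of GABA receptors on bipolar cells, had 10.52, 11.07 and 11.63 against 10.89, 12.41 and 12.30 (0.79 ± 0.23, 0.65 without that array, and 0.11 in darkness), and *Cacnb2*, a calcium channel subunit, differed by 0.15 ± 0.10.

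Ganglion cells, whose axons form the optic nerve, had mostly lower values. Of 15 genes, 3 were higher and 12 lower (7451 and 6756 of all 14217 genes). At an unadjusted p under 0.05, 0 were higher and 1 lower (6.42% and 2.87% of all genes). The median of the 15 was −0.18 in light with and without 3 ZT light replica 2. It was 0.15 in darkness, where 14 of 15 were higher (7106 of all 14217 genes). By replica the light medians were −0.01, −0.14 and −0.48, so that replica 1 was near 0. *Nefm*, a neurofilament, had 12.65, 13.59 and 13.65 against 12.11, 13.02 and 13.12, a ratio of 0.69 ± 0.01 (SD, n = 3) in overlapping groups. *Pou4f1*, the ganglion cell transcription factor, differed by −0.48 ± 0.24 in light and 0.43 in darkness, and *Gap43*, a growth cone protein, by −0.49 ± 0.22 and 0.03.

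**Figure D4:**
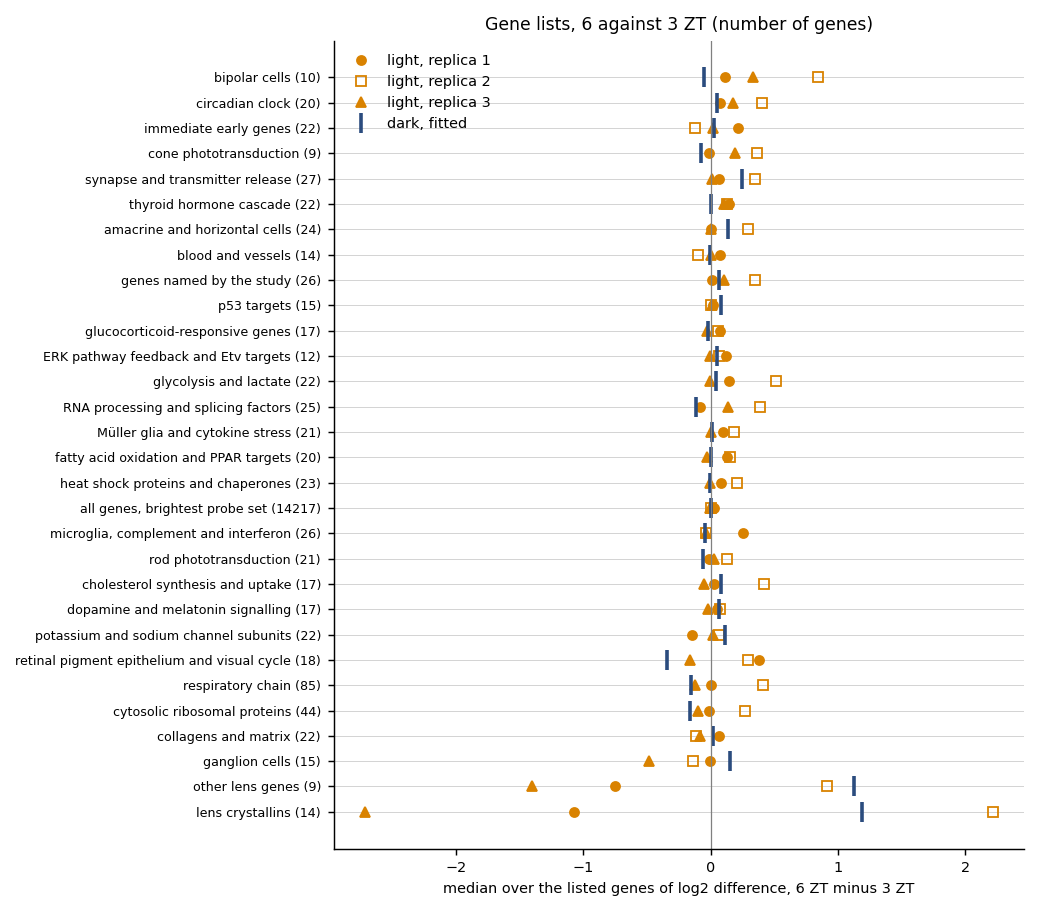
Median over the listed genes of the log2 difference of 6 minus 3 ZT (x axis) for 29 gene lists and all genes (y axis, genes measured in brackets), in light by replica (orange) and in darkness from the fit (blue bars). Replica 2, drawn open, holds the 3 ZT light array that stood apart. Bipolar and clock genes are above 0 in each replica. So are the lists of the thyroid hormone cascade, synapse, amacrine and horizontal cells, p53 targets and genes named by the study. The lens lists run from −2.72 to 2.22 between replicas.

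The retina carries a circadian clock of its own, in which *Per* and *Cry* genes repress their own activators. Of 20 clock genes, 18 were higher and 2 lower at 6 ZT light, 7 higher and 0 lower at an unadjusted p under 0.05 (6.42% and 2.87% of all genes), and 12 were higher in all 3 replicas (2377 of all 14217 genes). The median was 0.21 in light, 0.19 without 3 ZT light replica 2 (3 genes higher at that p, against 3.42% of all genes), and 0.05 in darkness. By replica it was 0.07, 0.40 and 0.18. *Cry2*, a repressor, had 12.569, 12.004 and 12.151 in 3 ZT light and 12.74, 12.66 and 12.74 in 6 ZT light, a difference of 0.47 ± 0.14 without overlap (adjusted p = 0.465). In darkness it was 0.00. *Per3* had 8.30, 9.10 and 9.87 against 8.58, 10.43 and 9.96 in light, and 9.34, 9.90 and 9.94 against 8.22, 9.66 and 9.56 in darkness. All replicas were higher in light and lower in darkness (0.57, or 0.33 without 3 ZT light replica 2, and −0.58), and the difference between them was 1.15 (adjusted p = 0.78).

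Clock output factors of the PAR bZIP family did not all have the same sign in light. *Dbp* had 11.03, 10.51 and 12.19 against 11.51, 11.99 and 12.29 (0.69 ± 0.28 in light, 0.27 without 3 ZT light replica 2, and 0.44 in darkness), and *Tef* differed by 0.57, 0.35 and 0.16 in that order. *Hlf*, the remaining member of the family in the list, had 11.49, 12.54 and 11.85 against 11.45, 12.07 and 11.99 (−0.12 ± 0.18, and 0.05 without 3 ZT light replica 2). *Bhlhe40*, a repressor that light induces in the brain clock, had 8.95, 8.91 and 10.31 against 9.29, 10.43 and 10.35, a difference of 0.63 that was 0.29 without 3 ZT light replica 2. The kinase *Csnk1d*, which marks *Per* proteins for turnover, had 11.97, 12.02 and 11.93 against 12.09, 12.15 and 12.14, a small difference of 0.16 ± 0.06 without overlap. *Per1* lay at 10.60, 10.60 and 10.85 against 10.61, 10.66 and 11.06 (0.10 ± 0.09), *Per2* differed by 0.35 ± 0.22, *Nr1d2* by 0.23 ± 0.10, and the repressor *Nr1d1* by 0.19 ± 0.17 in light and 0.46 in darkness.

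Lens crystallins had the largest median of the 29 lists, in opposite directions between replicas. Crystallins fill the fibre cells of the lens and some are made in retina. Of 14 crystallins, 2 were higher and 12 lower at 6 ZT light, with 0 and 3 at an unadjusted p under 0.05 (6.42% and 2.87% of all genes). The median was −0.57, but by replica it was −1.07, 2.22 and −2.72, and without 3 ZT light replica 2 it was −1.41. In darkness all 14 were higher (median 1.19). The log2 of their summed signal was 17.54, 15.42 and 17.31 in 3 ZT light and 16.82, 17.52 and 14.75 in 6 ZT light, against 17.27, 15.86 and 16.56 in 3 ZT dark and 17.27, 18.00 and 17.96 in 6 ZT dark. The array 6 ZT light replica 3 was thus the lowest of the 12 and 6 ZT dark replica 2 the highest, and the light groups overlapped. *Mip*, the water channel of lens fibres, had 10.68, 7.32 and 10.43 against 8.84, 10.99 and 6.19, and its difference of −0.80 ± 1.39 became 0.72 without 6 ZT light replica 3.

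The gamma crystallins *Crygd*, *Crygb* and *Crygc* were lower in every replica. *Crygd* had 12.51, 11.71 and 8.35 in 3 ZT light and 10.04, 10.80 and 7.35 in 6 ZT light (−1.46 ± 0.41, adjusted p = 0.465). *Crygb* had 12.62, 10.89 and 10.10 against 9.93, 10.58 and 7.65, and *Crygc* 11.88, 10.11 and 9.32 against 9.08, 9.79 and 6.98. The values of *Crygb* and *Crygc* ran nearly in parallel over the light arrays. Whether their probe sets detect separate transcripts was not tested. In darkness these 3 gamma crystallins were higher at 6 ZT in replicas 1 and 2 and lower in replica 3, by 1.05, 0.85 and 1.02 in the fit. Other gamma crystallins differed less in light, *Cryga* by −0.16, *Crygn* by 0.01 and *Crygs* by −0.61. *Bfsp1*, a filament protein of the lens, was lower in replicas 1 and 3 only, with 9.96, 8.69 and 9.40 against 8.61, 8.75 and 7.99 in light, and 8.84, 8.64 and 9.15 against 10.12, 9.76 and 10.14 in darkness. Its difference between light and darkness was −2.02 ± 0.44 (adjusted p = 0.78). Of the 9 other lens genes, 9 were lower and 0 higher in the fit in light (median −0.31), and 9 were higher in darkness (median 1.13). By replica the light medians were −0.75, 0.91 and −1.41, with replica 2 opposite to the others, and without 3 ZT light replica 2 the fitted median was −1.19. The part of lens tissue left in a sample in these values was not tested.

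**Figure D5:**
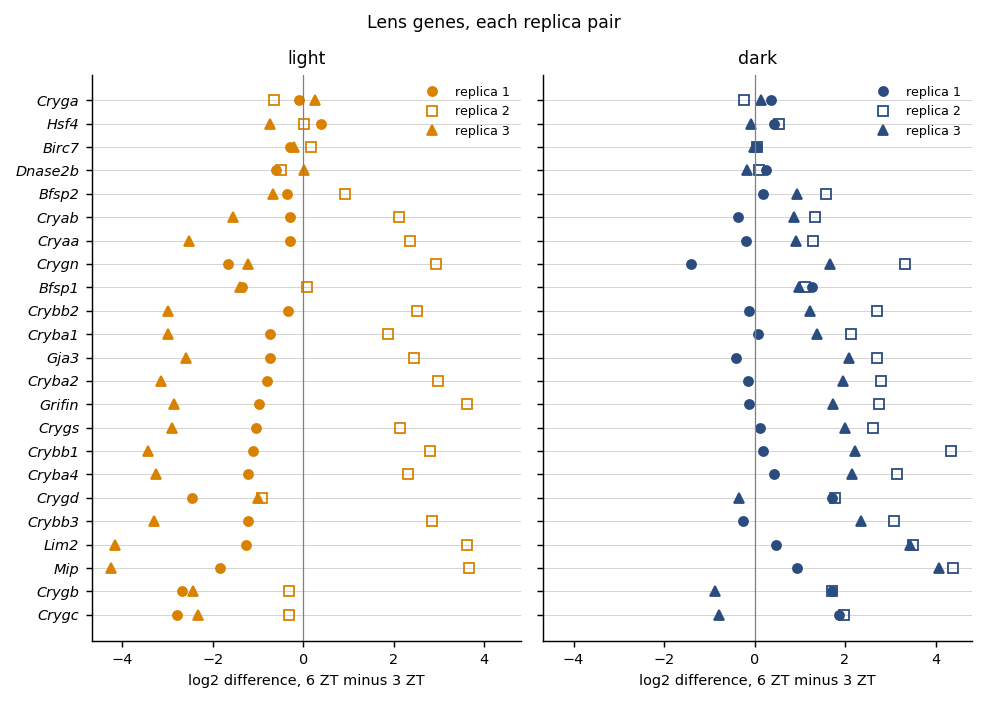
Log2 difference of 6 minus 3 ZT (x axis) for 23 lens genes (y axis) in light (left) and in darkness (right), by replica, with replica 2 drawn open. *Crygb*, *Crygc* and *Crygd* are below 0 in all light replicas, while most others are above 0 in replica 2 and below 0 in replicas 1 and 3.

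Metabolic and glial genes followed the array that stood apart to different degrees. Of 22 genes of glycolysis and lactate transport, 21 were higher and 1 lower. At an unadjusted p under 0.05, 4 were higher and 0 lower (6.42% and 2.87% of all genes). The median of the 22 was 0.21. Without 3 ZT light replica 2 it was 0.04 with 0 genes at that p, and the light medians by replica were 0.14, 0.51 and −0.01. *Hk2*, a hexokinase, had 11.88, 10.33 and 11.79 against 12.18, 11.85 and 12.67 (0.90, and 0.42 without that array). The glucose transporter *Slc2a1* had 12.51, 12.02 and 12.37 against 12.96, 12.80 and 12.55, without overlap, and differed by 0.47 with that array and 0.24 without. The 85 respiratory chain genes (median 0.10, and −0.06 without that array) and the 44 cytosolic ribosomal protein genes (0.05 and −0.07) changed sign without it. *Rlbp1*, the retinal-binding protein of Müller glia and pigment epithelium, had 13.61, 13.18 and 13.80 against 14.02, 14.04 and 14.13, without overlap (0.54 ± 0.15, and 0.33 without that array). *Rdh10*, a retinol dehydrogenase, had 10.25, 10.09 and 10.38 against 11.09, 10.64 and 10.53, also without overlap. Over 18 genes of pigment epithelium and visual cycle, 10 were higher and 8 lower, with a median of 0.08 in light and −0.34 in darkness. Without 3 ZT light replica 2 the light values turned to 8 higher and 10 lower with a median of −0.05.

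In a list that joins Müller glia, the supporting cells of the retina, with general cytokine and stress genes, 14 of 21 were higher and 7 lower (median 0.11, and 0.03 with 12 higher and 9 lower without 3 ZT light replica 2). *Aqp4*, a water channel, differed by 0.29 ± 0.10, and *Stat3*, a cytokine signalling factor, had 9.43, 9.56 and 10.13 against 9.96, 10.19 and 10.15. Of 23 heat shock and chaperone genes, 17 were higher and 6 lower (median 0.05), and without 3 ZT light replica 2 they were 12 and 11 (median 0.01). *Hyou1*, a chaperone of the endoplasmic reticulum, had 10.36, 9.39 and 9.88 against 11.02, 10.69 and 10.62. Its difference was 0.90 ± 0.34 in light, 0.61 without that array, and 0.57 in darkness. Of 26 genes of microglia, complement and interferon, 14 were higher and 12 lower. At an unadjusted p under 0.05 there were 0 (6.42% higher and 2.87% lower of all genes). Among p53 targets the cell cycle inhibitor *Cdkn1a* differed by −0.36 ± 0.12 and *Ccng1*, a cyclin, by 0.31 ± 0.11.

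The genes whose 3 to 6 ZT difference was farthest apart between light and darkness, by the lowest p for that difference and the same sign in all replicas, included *F3*, *Masp2*, *Khdc4*, *Greb1l* and *Slc16a10* on the side of light, all with an adjusted p of 0.78. *F3*, the tissue factor that starts coagulation, had 9.56, 9.81 and 10.18 in 3 ZT light and 9.98, 10.23 and 10.40 in 6 ZT light, and 9.64, 9.99 and 10.11 in 3 ZT dark and 9.46, 9.59 and 9.98 in 6 ZT dark. Each light replica was higher and each dark replica lower at 6 ZT, with 0.35 ± 0.07 and −0.24, and a difference of 0.59 ± 0.10. *Masp2*, a protease of the lectin pathway of complement, showed the same order (0.53 and −0.31, difference 0.84). *Khdc4*, an RNA-binding protein, differed by 0.37 in light and −0.16 in darkness. On the other side stood *Rab27b*, *Bfsp1*, *Crygc* and *Crygd*, whose values are given above.

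Of 26 genes that the study named, 18 were higher and 8 lower at 6 ZT light. At an unadjusted p under 0.05, 5 were higher and 4 lower (6.42% and 2.87% of all genes). The study chose some of them on these samples, so the list is no independent evidence. Besides those described, *Crx*, the homeobox factor of photoreceptors, differed by 0.95, and by 0.30 without 3 ZT light replica 2, and *Myo5a*, a myosin of organelle transport, by −0.72. *Pax4*, a homeobox factor, had 13.05, 11.13 and 13.22 against 13.13, 13.06 and 13.47, and its difference of 0.75 was 0.11 without 3 ZT light replica 2. *Cpt1a*, which imports fatty acids into mitochondria, had 12.08, 12.18 and 12.26 against 12.26, 12.50 and 12.47, with no overlap (0.24 ± 0.12), and stood 0.44 and 0.45 above darkness at 3 and 6 ZT, about the same at both hours.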

How the data were processed

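Retinal RNA was measured on 15 Affymetrix RAT230_2 arrays, 3 in each of 5 conditions. According to their methods, the authors turned array images into the deposited log2 values by Robust Multi-array Average (RMA), in software not given in the sources used here. Array medians differed by replica number (8.28 to 8.32 in replica 1, 8.58 to 8.68 in replica 2, 8.74 to 8.80 in replica 3). Statements that groups overlap or not compare unpaired values and so include these offsets. Arrays of the same number deviated together (r from 0.298 to 0.706 in the 6 pairs of 3 and 6 ZT, in light and in darkness) and shared 3.58% to 11.5% exactly equal values, and the replica number was kept as a block.

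limma 3.58.1 in R 4.3.3 (lmFit, eBayes) was fitted to all 15 arrays with condition plus replica. Benjamini-Hochberg adjustment covered 31042 probe sets, with a threshold of 0.05. The fit was tested on simulated data, where it found 84 of 100 changes of 1 log2 unit and 99 of 100 of 2, with 14 false among 197 calls. The simulation gave each probe set independent normal noise of the same SD in every array. The array 3 ZT light replica 2 was noisier than that, so the simulation does not say what these data could detect. Ratios were taken between arrays of the same number as 2 to the power of the log2 difference, and ± after a fitted difference is its SE. Symbols came from the platform annotation updated through RefSeq (20826 probe sets had 1 symbol, 436 several, 9780 none). Each gene entered the 29 lists with its brightest probe set.

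Named genes are the 12 with the lowest p in each direction (brightest probe set, same sign in 3 pairs), the 10 with the largest ratios per direction that passed the ratio rule, the 4 lowest p of each list, those the study named, and the 6 lowest p per direction for the difference between light and darkness, of which the text gives a selection. *Fos*, *Egr1*, *Grik1*, *Isl1*, *Dio3*, *Hlf*, *Slco1a4*, the genes of the early and late groups, and further clock, cone and rod genes were added once their values were known. The members and lists were chosen with earlier results of these data known. Alternatives were a fit with no replicate block, quantile or cyclic loess scaling, leaving out the dimmest 40% of probe sets, array quality weights (statmod 1.5.0), fits to 12 or 6 arrays, an intensity trend, other ratios, and leaving out each array. The fit was also run without both arrays of high *Actb* difference. Counts at an unadjusted p, and list counts without 3 ZT light replica 2, were added after seeing the data. Figures were drawn with matplotlib 3.10.9.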

Additional observations from a re-analysis of the deposited data

How the results depend on the processing

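Under every alternative run, 0 probe sets passed an adjusted p of 0.05 between 6 and 3 ZT in light, in darkness or in their difference. The number at an unadjusted p under 0.05 between 6 and 3 ZT light, 3225 with all arrays, was 511 without the replicate block, 1933 with dim probe sets left out (fewer were tested), 5539 with array quality weights, 1940 with the 6 light arrays alone and 1556 without both arrays with the largest *Actb* difference. With each array left out in turn it ran from 1466 (3 ZT light replica 2) to 4771 (3 ZT light replica 3), with 1578 and 2083 without 6 ZT light replicas 2 and 3. In darkness, 1724 became 128 without the block, 1022 with dim probe sets left out, 3438 with weights and 2877 without both *Actb* arrays, and 678 (without 6 ZT dark replica 2) to 2663 (without 3 ZT light replica 2) with an array left out. For the difference between light and darkness, 1847 became 147 without the block, 984 and 3297 with the dim filter and the weights, and 1125 to 3145 with an array left out (6 ZT light replica 2 and 1). The share of higher probe sets among those at an unadjusted p under 0.05 in light was 61.0%, and 52.0% after quantile and 56.3% after cyclic loess normalization. The array quality weight of 6 ZT light replica 3 was 7.45, against 0.49 and 0.46 for replicas 1 and 2. Weighted results for 6 ZT light therefore rest mostly on that array.

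By the ratio rule, 10 higher and 62 lower probe sets became 31 and 126 without the replicate block (ratios to the mean of 3 ZT light), 0 and 6 with ratios of 2 and 0.5, and 28 lower with the reciprocal of 1.6. With a replica left out they rose to 19 to 94 and 149 to 328, since a rule over fewer pairs is easier to pass. Both counts were lowest without replica 2, whose differences between 6 and 3 ZT light had the largest SD (0.513). For the light over dark groups with a replica left out, counts ran from 20 to 114 (higher at 3 ZT only), 1 to 4 (both hours), 29 to 110 (6 ZT only), 24 to 190 (lower at 3 ZT only), 0 to 13 (both hours) and 33 to 65 (6 ZT only).

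For 113 named genes and probe sets, 2687 of 2704 values under the alternatives kept their direction and 0 passed an adjusted p of 0.05. Much of this agreement was fixed in advance. The fitted difference cannot change without the replicate block, with dim probe sets left out or with an intensity trend. Nor can it in fits to fewer conditions or when only a dark array is left out. Only scaling, array quality weights and leaving out a light array could turn a value, and the weights in 6 ZT light lay mostly on replica 3. Many of these genes were also chosen for the same direction in all 3 replicas. The 17 values that turned belong to 6 genes. *Fos* (−0.15) was 0.92 with array quality weights, 0.43 without both *Actb* arrays, and ran from −0.62 without 3 ZT light replica 1 to 0.47 without 3 ZT light replica 2, with 0.035 and 0.042 without 6 ZT light replicas 1 and 2. *Egr1* (0.35) ran from −0.16 without 6 ZT light replica 3 to 0.86 without 6 ZT light replica 2 and was 1.20 with weights, and *Mip* (−0.80) from −2.23 without 6 ZT light replica 2 to 0.72 without 6 ZT light replica 3 and was −3.65 with weights. *Hlf* (−0.12) was 0.21 with weights, 0.049 without both *Actb* arrays, and ran from −0.27 without 6 ZT light replica 3 to 0.047 without 3 ZT light replica 2. *Slco1a4* (−0.03) was 0.083 without both *Actb* arrays and ran from −0.18 without 6 ZT light replica 1 to 0.11 without 3 ZT light replica 2, with 0.043 and 0.050 without 6 ZT light replicas 2 and 3. The brightest probe set of *Drd4* (−0.04) was 0.049 without both *Actb* arrays and ran from −0.16 without 6 ZT light replica 1 to 0.070 without 6 ZT light replica 2. Of 29 gene lists, 9 had a median that moved by more than the SD of its 3 replica medians under some alternative. The cause of these shifts was not tested. The arrays hold no depth, and their number limits the precision.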
